A study of Capra hircus with 6 samples.

Results

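Circular RNAs (circRNAs) of 3 host genes, SLC8A1, SMARCA5 and CAMSAP1, were examined in ovarian follicles of the goat, Capra hircus, taken before ovulation. They comprise all circRNAs whose deposited gene identifier is the goat NCBI Gene ID of one of these genes, and 1 circRNA is 1 combination of chromosome, start, end and strand. The rule found 15 of the 13950 distinct circRNAs, 8 of SLC8A1 (Gene ID 102181964), 6 of SMARCA5 (102190445) and 1 of CAMSAP1 (106502666). Together they held 2689 of 252857 back-splice reads, the reads that cross the joint of a circle. These were 0.108% of the circRNAs and 1.06% of the reads. No member carried a further gene identifier.

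The series compares 2 goat breeds, the meat goat Boer and Macheng black, with 3 animals of each and 1 follicle library per animal, made from total RNA depleted of ribosomal RNA. Goats of both breeds had normal estrous cycles and received the gonadotropins PMSG (1000 IU), which stimulates follicles to grow, and hCG (500 IU), which stands in for the ovulatory surge of luteinizing hormone. Neither the ages of the goats nor the number of follicles per library is given in the sources used here. For Boer 2, the sample code in the labels and that of the deposited file differ in their last digit, while the breed letters match.

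A circRNA forms when a splice donor joins an upstream splice acceptor instead of a downstream one. The closed molecule has no free ends, resists exonucleases and often outlives the linear messenger RNA of its host gene. SLC8A1 encodes the sodium-calcium exchanger NCX1, a plasma membrane protein that moves calcium out of the cell. Its long exon with the start codon forms a circle known from several mammals, and another part of the gene holds a set of alternatively spliced exons. SMARCA5 encodes SNF2H, the ATPase that slides nucleosomes in ISWI chromatin remodelling complexes. CAMSAP1 encodes a protein that binds the minus ends of microtubules. Circles of SMARCA5 and CAMSAP1 have been found in many human tissues and tumours.

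The 6 libraries listed 3347 to 7005 circRNAs with 23480 to 74796 back-splice reads. The members took 1.09%, 1.19% and 1.04% of these reads in Boer 1, 2 and 3 and 1.02%, 1.11% and 0.848% in Macheng black 1, 2 and 3. The breeds overlapped in this share. Of the 15 members, 8 were listed in all 6 libraries, as were 8.11% of all circRNAs, and 5 were listed in 1 library. The tables hold no linear expression, and none of 15 marker genes of granulosa, theca, oocyte, leukocyte or endothelium was a usable circRNA host, so the labelled tissue could not be checked with them.

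All members lie on the minus strand, those of SLC8A1 and CAMSAP1 on chromosome 11 and those of SMARCA5 on chromosome 17. Positions, counted from 1, follow the deposited tables, whose genome build is not given in the sources used here. Each circle is called below by its span, the distance between its ends in bases.

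SLC8A1 formed circles mainly in a long exon and in a region further downstream in the gene. The listed exon at 22517513 to 22519344, 1832 bases long, made up the whole of the 1832-base circle. A 1835-base circle began at the same position and ended at 22519347, 3 bases beyond the listed exon. The other main circles used 2 start and 2 end positions in different combinations. The 17258-base circle ran from 22236507 to 22253764, the 46153-base circle from 22207612 to 22253764 and the 33250-base circle from 22207612 to 22240861. The fourth combination, the 4355-base circle from 22236507 to 22240861, was listed in Boer 2 alone, with 2 reads. A 282-base circle, from 22414494 to 22414775, lay between the long exon and the downstream region, inside a listed intron of 263112 bases. It was listed in Macheng black 3 alone, with 2 reads.

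The deposited part lists of the downstream SLC8A1 circles name mainly introns. In the 17258-base circle, 4 listed introns covered 16988 bases and left 270 bases uncovered, in stretches of 100, 131, 18 and 21 bases between introns. None of these stretches is listed as an exon. The 46153-base and 33250-base circles also hold a listed exon of 276 bases at their downstream end. Outside their listed introns they have 546 and 507 bases. The upstream end of the 17258-base and 46153-base circles falls inside a listed intron, 529 bases short of its border. A rarer circle of 17894 bases, from 22236507 to 22254400, extends past that border. The deposited spliced lengths of 17258, 46153 and 33019 bases thus mostly count introns.

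The dominant SMARCA5 circle, 460 bases from 14096918 to 14097377, has a single listed intron of 191 bases and no listed exon. The remaining 269 bases flank this intron, 120 on the one side and 149 on the other. Its deposited spliced length of 191 bases is therefore the length of the intron. A second circle of 2876 bases, from 14111814 to 14114689, has 1 listed exon of 180 bases and 382 bases outside its listed introns. A 456-base circle, from 14096918 to 14097373, shares the start of the dominant one and ends 4 bases earlier.

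CAMSAP1 formed a single circle, 1173 bases from 101848987 to 101850159. It holds 2 listed exons of 162 and 263 bases, 425 in all, around an intron of 748 bases. In 5 libraries the deposited spliced length was 1173 bases. In Macheng black 1 it was 1011 bases, because the part list of that library leaves out the exon of 162 bases, although the ends of the circle were the same.

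**Figure D1:**
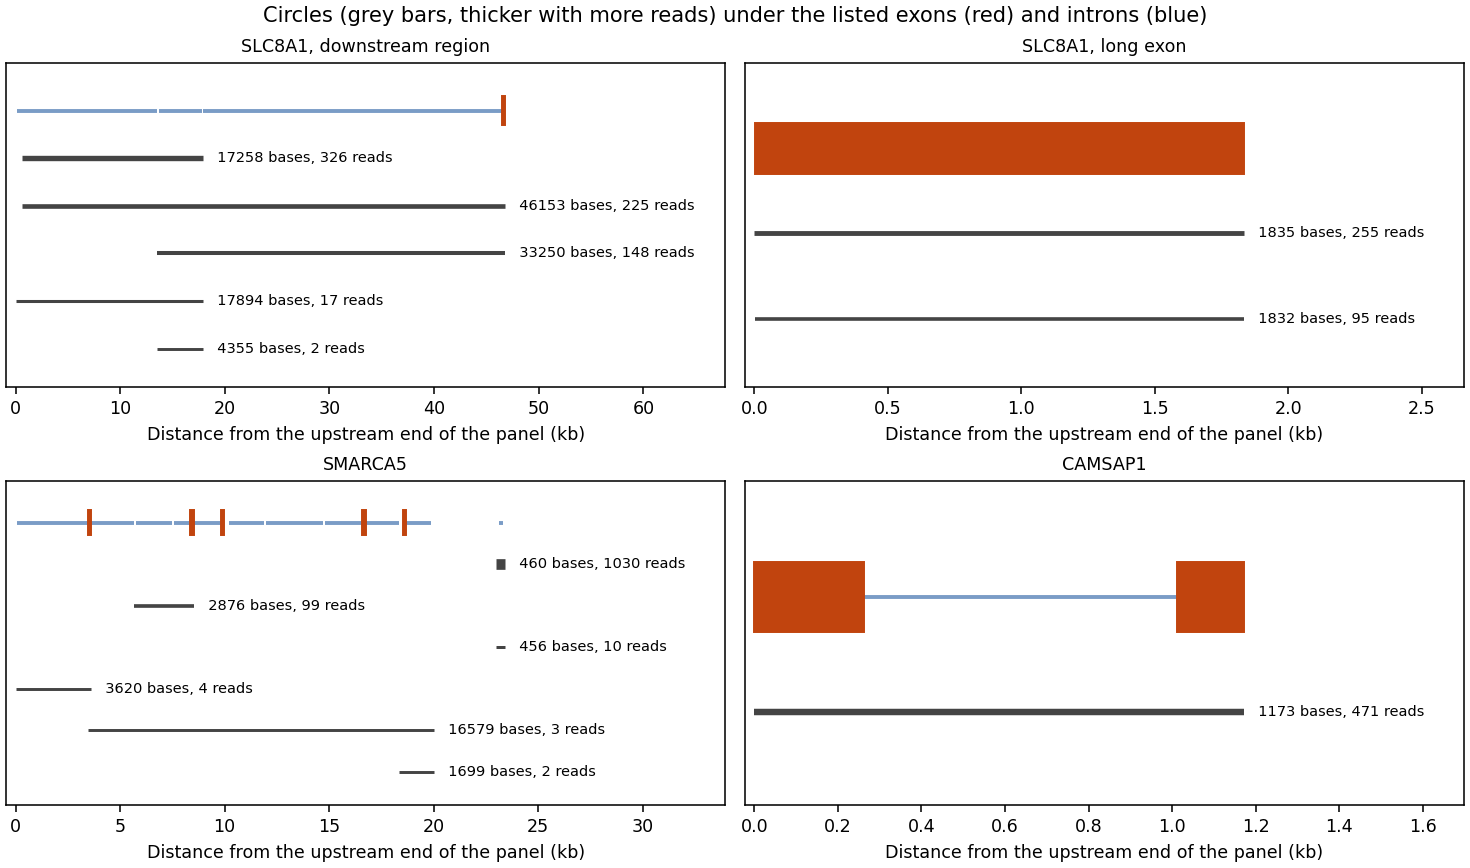
Map of the 14 circles of 15 that lie in the drawn regions, by distance in kilobases in the direction of transcription. Grey bars are circles labelled with span and reads over 6 libraries, red boxes are listed exons, blue lines are listed introns and blanks between them are stretches in neither. The SLC8A1 downstream circles combine a few shared ends, and the 460-base SMARCA5 circle, with 1030 reads, has no listed exon.

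SMARCA5 had the most back-splice reads of the 3 genes, 1148 against 1070 for SLC8A1 and 471 for CAMSAP1. Among 784 usable host genes they ranked 4, 5 and 16 by reads. These hosts cover 14.7% of all circRNAs, so the ranks leave out the hosts of the others. A back-splice count comes from 1 joint, whatever the length of the circle, so counts of different circles were compared without scaling to length. In these bulk samples, fewer cells of a type and less RNA per cell cannot be told apart.

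The 460-base SMARCA5 circle was the most abundant member and rank 22 of all circRNAs by reads. It had 316, 63 and 109 back-splice reads in Boer 1, 2 and 3 and 187, 267 and 88 in Macheng black 1, 2 and 3. In CPM, counts scaled to a common library size of 1000000 reads, these were 4885, 2155 and 2551 for the Boer libraries and 5218, 5837 and 3349 for the Macheng black ones. Boer 2 and Boer 3 lay below all Macheng black libraries, while Boer 1 lay among them. The Boer mean was 3197 ± 1475 CPM and the Macheng black mean 4801 ± 1295 CPM (SD, n = 3 per breed), and the difference did not pass the test (edgeR log2 fold change, Boer over Macheng black, -0.58 ± 0.46, SE, adjusted p = 0.9998). It was -0.95 without Boer 1 and -0.36 without Boer 2.

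The CAMSAP1 circle, rank 47 of all circRNAs, had 126, 68 and 103 reads in Boer 1, 2 and 3 and 63, 73 and 38 in Macheng black 1, 2 and 3. Scaled to library size these were 1948, 2326 and 2410 CPM for the Boer libraries and 1758, 1596 and 1446 CPM for the others. Each Boer library lay above each Macheng black library, with the nearest pair, Boer 1 and Macheng black 1, close together. Means of 2228 ± 246 and 1600 ± 156 CPM (SD, n = 3 per breed) gave a log2 fold change of 0.47 ± 0.40 (SE), which did not pass (edgeR adjusted p = 0.9998).

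The 17258-base circle of SLC8A1, rank 76, had 128, 40 and 51 reads in Boer and 28, 64 and 15 in Macheng black, in the order of the animals. Boer thus had 1979, 1369 and 1194 CPM, and Macheng black had 781, 1399 and 571 CPM. Macheng black 2 lay between the Boer libraries, and the other Macheng black libraries lay below all of them. The log2 fold change was 0.71 ± 0.41 (SE; edgeR adjusted p = 0.9998). It was 1.17 without Macheng black 2 (edgeR unadjusted p = 0.0134, adjusted p = 0.764) and 0.47 without Macheng black 3.

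The long-exon circle of SLC8A1, known from other mammals, was split over its ends. The 1835-base form had 54, 45 and 55 reads in Boer and 36, 45 and 20 in Macheng black, and the 1832-base form had 34, 8 and 15 and 13, 18 and 7. The breeds overlapped in both forms, whose log2 fold changes were 0.39 ± 0.39 and 0.18 ± 0.48 (SE; edgeR adjusted p = 0.9998 for each). Without Boer 1 and without Boer 2 these were 0.69 and 0.23 for the 1835-base form, and -0.050 and 0.36 for the 1832-base form. Summed, the long exon gave 88, 53 and 70 reads in Boer and 49, 63 and 27 in Macheng black. With both forms added, its 350 reads exceeded the 326 reads of the 17258-base circle, so which circle of SLC8A1 is dominant depends on whether ends that differ by 3 bases are merged. The 1835-base form held 74.9% ± 12.2 of the long-exon reads in Boer and 73.0% ± 1.39 in Macheng black (mean and SD, n = 3 per breed; two-sided exact permutation p = 0.8). Boer 1 was the lowest library, at 61.4%. The smallest p this test allows, with 3 libraries per breed, is 0.1.

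The 33250-base circle of SLC8A1 had the largest log2 fold change of the 9 members tested. It had 50, 27 and 36 reads in Boer and 13, 18 and 4 in Macheng black, or 773, 924 and 842 CPM and 363, 393 and 152 CPM. All Boer libraries lay above all Macheng black libraries. The log2 fold change was 1.43 ± 0.44 (SE), with an unadjusted p of 0.0028 and an adjusted p of 0.358 in the edgeR quasi-likelihood test, so the circle did not pass. Over 12 alternative settings its log2 fold change ran from 1.16 to 1.69 and its edgeR or DESeq2 adjusted p from 0.299 to 0.999.

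The 46153-base circle had 65, 33 and 44 reads in Boer and 27, 39 and 17 in Macheng black. The CPM were 1005, 1129 and 1030 in Boer and 753, 853 and 647 in Macheng black, again without overlap. The log2 fold change of 0.48 ± 0.39 (SE) did not pass (edgeR adjusted p = 0.9998). The 2876-base circle of SMARCA5 had 33, 8 and 18 reads in Boer and 13, 21 and 6 in Macheng black, with overlapping breeds (401.7 ± 119 and 350 ± 116 CPM, SD, n = 3 per breed) and a log2 fold change of 0.20 ± 0.48 (SE; edgeR adjusted p = 0.9998), which was near 0 without Macheng black 3 and 0.46 without Macheng black 2. The 17894-base circle of SLC8A1 had 10, 2 and 0 reads in Boer and 5, 0 and 0 in Macheng black, and the 456-base circle of SMARCA5 had 10 reads in Macheng black 1 alone. No listed circRNA had under 2 reads, so an unlisted circle may still have had 1 read. The remaining 5 members had 2 to 4 reads in all.

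**Figure D2:**
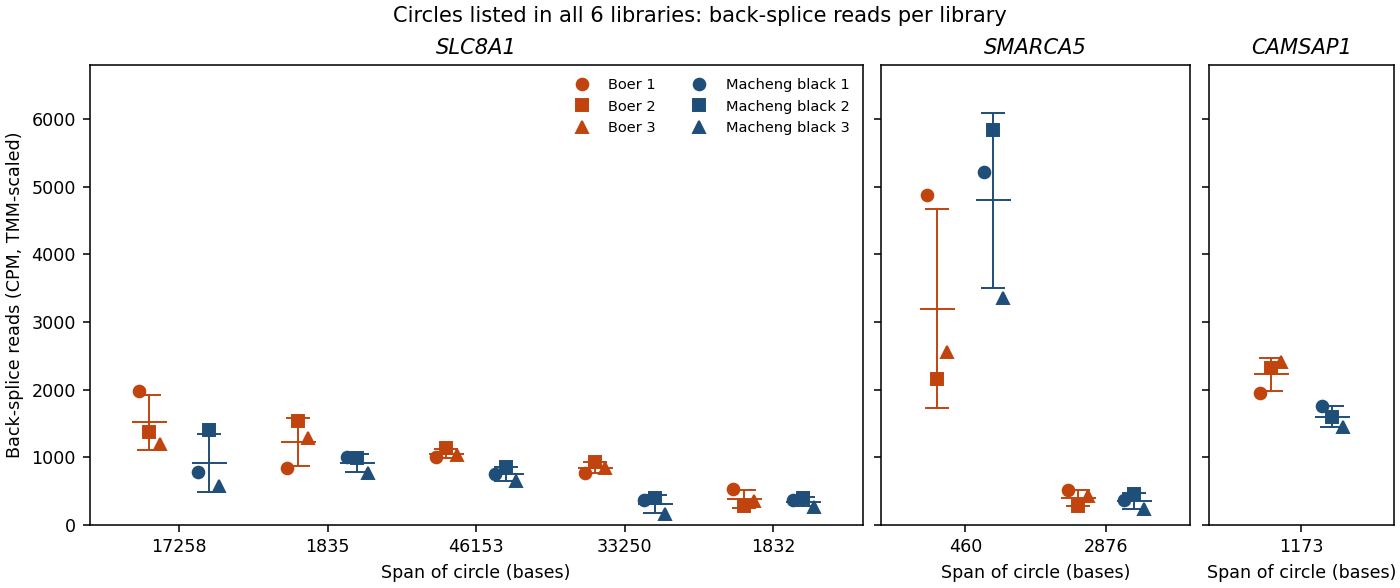
Back-splice reads in CPM (y axis) of the 8 circles listed in all 6 libraries, ordered by reads within each gene and named by span (x axis). Points are libraries, horizontal bars with error bars are breed means with SD (n = 3). The 1173-base, 46153-base and 33250-base circles did not overlap between breeds. The 460-base circle had both the highest mean and the largest SD in each breed.

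None of the 9 tested members passed the comparison of the breeds, in which 0.35% of all 3712 tested circRNAs passed (13, edgeR quasi-likelihood test, adjusted p under 0.05). DESeq2 called no member either, and 0.216% of all circRNAs. At an unadjusted p under 0.05 in edgeR, 1 of 9 members stood out, the 33250-base circle, against 5.23% of all tested circRNAs. In DESeq2 the unadjusted p was 0.0167 for this circle and 0.0499 for the 460-base SMARCA5 circle. The other 6 members were listed in too few libraries to be tested. In 3 of the 9 the breeds did not overlap in CPM, each time with Boer higher, and 11.7% of all tested circRNAs had no overlap. The log2 fold change was above 0 in 8 of 9 members and in 54.6% of all tested circRNAs, and the medians were 0.47 and 0.11. The 5 SLC8A1 circles listed in all libraries come from 1 gene and the same libraries, so these counts are not independent.

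Summed over their circles, SLC8A1 had 341, 157 and 201 reads in Boer and 122, 184 and 65 in Macheng black. As CPM over host gene reads these were 27722, 35613 and 27149 in Boer and 19873, 23030 and 14495 in Macheng black. No Boer library overlapped a Macheng black library, which held for 10.1% of the 434 tested host genes. The log2 fold change was 0.65 ± 0.37 (SE; edgeR adjusted p = 0.952). SMARCA5 had 351, 71 and 127 reads in Boer and 213, 290 and 96 in Macheng black, with Boer 1 among the Macheng black libraries, and a log2 fold change of -0.57 ± 0.37 (SE; edgeR adjusted p = 0.968). CAMSAP1, with its single circle, had 0.49 ± 0.35 (SE; edgeR adjusted p = 0.968). On the scale of host gene reads, Boer 1 and Macheng black 1 stood at 10243 and 10262 CPM for CAMSAP1, so that its breeds overlapped there. None of the 3 genes passed in edgeR, at adjusted or unadjusted p under 0.05, while 1.15% of host genes passed after adjustment and 6.91% before it. DESeq2 called none of the 3 after adjustment either, and 0.23% of host genes, but gave SLC8A1 an unadjusted p of 0.0439 (adjusted p = 0.991). In edgeR the unadjusted p of SLC8A1 was 0.0382 without Macheng black 2 and 0.041 with a filter of at least 5 reads in 3 libraries. The edgeR adjusted p were 0.861 and 0.518, and 19 of 377 and 21 of 240 host genes had an unadjusted p under 0.05. For SMARCA5 without Boer 1 the log2 fold change was -0.90 (edgeR unadjusted p = 0.0145, adjusted p = 0.368), with 28 of 353 host genes under 0.05 unadjusted. In the other edgeR settings the unadjusted p ran from 0.052 to 0.244 for SLC8A1 and from 0.075 to 0.383 for SMARCA5.

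SLC8A1 reads were divided over 5 main circles, whose shares varied between libraries. The 17258-base circle held 37.5%, 25.5% and 25.4% of the SLC8A1 reads in Boer 1, 2 and 3 and 23.0%, 34.8% and 23.1% in Macheng black 1, 2 and 3. It was the largest single circle in Boer 1 and Macheng black 2, and the 1835-base circle was the largest in the other 4. Exact 95% intervals, which cover counting error only, were 32.4% to 42.9% in Boer 1 and 15.8% to 31.4% in Macheng black 1. The share averaged 29.5% ± 6.99 in Boer and 26.9% ± 6.79 in Macheng black (mean and SD, n = 3 per breed; two-sided exact permutation p = 0.5). The long exon, both forms summed, held 31.5% ± 4.93 in Boer and 38.6% ± 3.88 in Macheng black (mean and SD, n = 3 per breed; two-sided exact permutation p = 0.2).

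The 33250-base circle held 14.7%, 17.2% and 17.9% of the SLC8A1 reads in Boer and 10.7%, 9.78% and 6.15% in Macheng black. The Boer shares were all higher, 16.6% ± 1.71 against 8.86% ± 2.39 (SD, n = 3 per breed; two-sided exact permutation p = 0.1, the smallest possible, and 0.45 adjusted over 9 shares). This circle shares its end at 22240861 only with the 4355-base circle. Among circles of the downstream region, that end took 25.04% ± 4.58 of the reads in Boer and 14.6% ± 3.36 in Macheng black, without overlap (SD, n = 3 per breed; two-sided exact permutation p = 0.1, not adjusted). Of its 150 reads, 148 belong to the 33250-base circle, so this largely repeats the share of that circle and is not a second observation. The end at 22253764, a share of the same total, took 73.0% ± 3.07 and 83.1% ± 6.99, with overlap (p = 0.2 in the same exact test). The start at 22207612 took 54.7% ± 8.22 in Boer and 53.4% ± 5.74 in Macheng black, with overlap (SD, n = 3 per breed; two-sided exact permutation p = 0.8). With 3 libraries per breed, this does not show that the starts were used equally.

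In SMARCA5 the 460-base circle held 90.03%, 88.7% and 85.8% of the reads in Boer and 87.8%, 92.1% and 91.7% in Macheng black. The breeds overlapped (88.2% ± 2.15 and 90.5% ± 2.36, SD, n = 3 per breed; two-sided exact permutation p = 0.3). With the 456-base form added, the difference between breeds grew from -2.31 to -3.88 points and the breeds no longer overlapped (p = 0.1 in the same exact test). This merging was added after the data were seen, and how often merged shares separate among all circRNAs was not computed. The lowest library, Boer 3, had an exact 95% interval of 78.5% to 91.4%. The 2876-base circle held 9.40%, 11.3% and 14.2% in Boer and 6.10%, 7.24% and 6.25% in Macheng black, with all Boer shares higher (two-sided exact permutation p = 0.1, the smallest possible, and 0.45 adjusted over 9 shares). Together with the 460-base and 456-base forms, this circle holds nearly all SMARCA5 reads. Its separation and that of the merged forms are therefore largely the same observation. Of the 9 shares compared in both genes, 2 did not overlap between breeds, against 14.2% of the within-gene shares of tested circRNAs with a usable host. That background took only hosts with at least 2 tested circRNAs. The 456-base circle, among the 9, was not tested, so the sets are not fully alike.

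**Figure D3:**
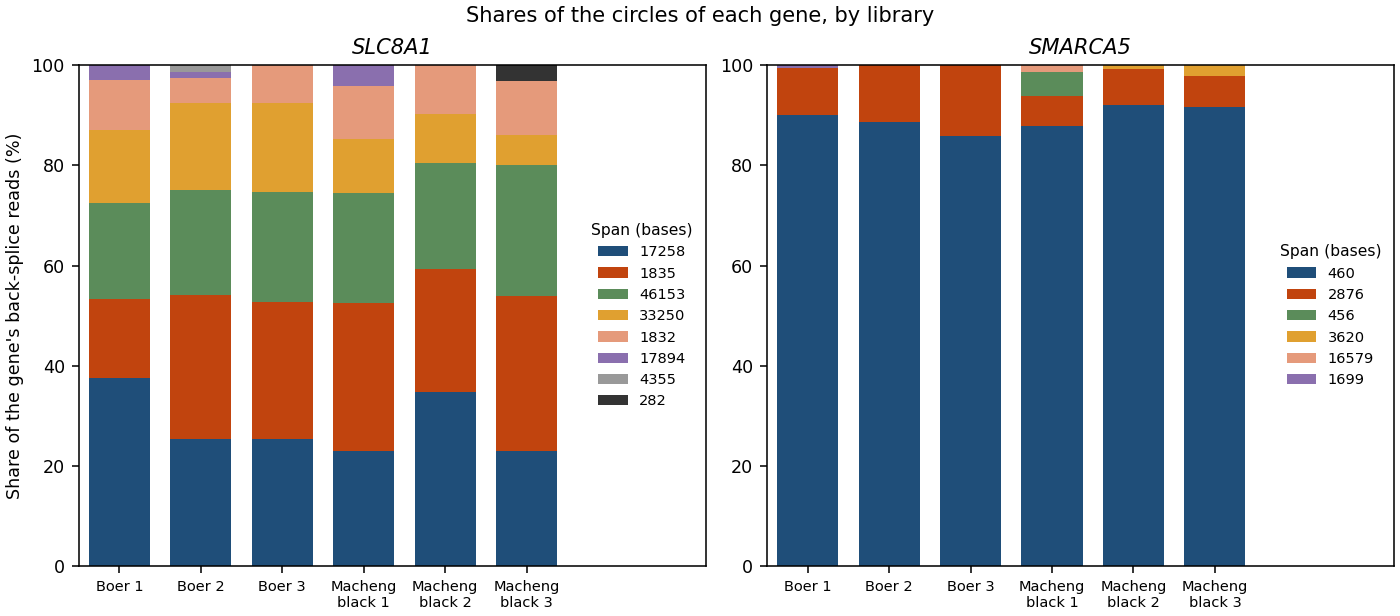
Stacked shares (y axis, percent) of the circles of SLC8A1 and SMARCA5 in the back-splice reads of their gene, for each library (x axis), with colours by span. SLC8A1 reads were spread over 5 main circles in every library, while the 460-base circle held 85.8% to 92.1% of the SMARCA5 reads.

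The files also give non-junction reads for each circle, and their values showed what that count covers. In 9656 pairs of circRNAs of 1 library and strand in which one lies inside the other, the inner one never had more non-junction reads. Where 2 starts and 2 ends occurred in all combinations, the inner and outer circle together had exactly as many as the overlapping pair, in 125 of 125 cases. For SLC8A1 in Boer 2, the 33250-base and 17258-base circles had 1426 and 1091 non-junction reads, and the 46153-base and 4355-base circles had 2295 and 222, the same sum. Equal sums would also arise if each end added a count of its own, so only the nested pairs bear on that distinction. In the nested pairs, the column behaved as a count of reads within a circle and not at its ends alone. These pairs do not show whether reads in introns were counted. The 282-base SLC8A1 circle, which lies inside a listed intron, had 11 non-junction reads in Macheng black 3, the only library that listed it. The share of back-splice reads in all reads of a circle therefore depends on its span, and it is not a ratio of circular to linear RNA.

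For the 460-base SMARCA5 circle, non-junction reads numbered 2, 2 and 1 in Boer 1, 2 and 3 and 6, 6 and 8 in Macheng black 1, 2 and 3. These raw counts, not scaled to library size, were very low. The breeds did not overlap in them, and how often this occurs among all circRNAs was not computed. Back-splice reads made up 99.4%, 96.9% and 99.1% of all its reads in Boer and 96.9%, 97.8% and 91.7% in Macheng black (98.5% ± 1.34 and 95.5% ± 3.31, SD, n = 3 per breed; two-sided exact permutation p = 0.2). The lowest library, Macheng black 3, had an exact 95% interval of 84.2% to 96.3%. The circle was rank 13 in mean share of the 1132 circRNAs listed in all libraries, whose median was 5.07%. Among 53 other circRNAs of like span, 307 to 690 bases, the median was 18.2%, and 2 had a higher share.

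The CAMSAP1 circle had 97, 39 and 47 non-junction reads in Boer and 25, 62 and 63 in Macheng black. Its back-splice shares stood at 56.5%, 63.6% and 68.7% in Boer and 71.6%, 54.1% and 37.6% in Macheng black. The highest and the lowest library were both Macheng black, and the breeds overlapped (62.9% ± 6.11 and 54.4% ± 17.0, SD, n = 3 per breed; two-sided exact permutation p = 0.6). The difference of 8.48 points rested on single libraries, falling to 0.074 points without Macheng black 3 and reaching 17.1 points without Macheng black 1. Exact 95% intervals of these 2 libraries, 61.0% to 80.7% and 28.2% to 47.8%, did not meet. Of 118 other circRNAs of 782 to 1759 bases, 11 had a higher mean share, and their median was 21.6%.

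The long exon of SLC8A1 had low back-splice shares for its span. Among the 1132 circRNAs listed in all libraries, its 1835-base form was rank 732 in mean share. The long exon had 1460, 1955 and 1174 non-junction reads in Boer and 1224, 1658 and 1186 in Macheng black, and both of its end forms carried the same count in all 6 libraries. Back-splice reads of both forms were 5.68%, 2.64% and 5.63% of all reads in Boer and 3.85%, 3.66% and 2.23% in Macheng black (two-sided exact permutation p = 0.3). For Macheng black 3 the exact 95% interval was 1.47% to 3.22%. The 1835-base form alone had a mean of 2.91%, and 142 of 150 other circRNAs of 1224 to 2752 bases had a higher share, with a median of 17.0%. The 17258-base circle had 10.3% ± 7.94 (SD, n = 6), from 2.41% in Macheng black 3 to 23.3% in Boer 1, and 21 of 285 circRNAs of like span were higher.

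Paired within libraries, the shares of the dominant circles differed between the genes in all 6 libraries. With the 17258-base circle as its dominant one, SLC8A1 minus SMARCA5 was -86.7 ± 6.13 percentage points. SLC8A1 minus CAMSAP1 was -48.4 ± 13.7 points, and SMARCA5 minus CAMSAP1 was 38.3 ± 10.52 points (SD of the 6 differences). Each of the 3 exact sign-flip permutation tests, two-sided, gave the smallest p possible with 6 libraries, 0.03125, adjusted p = 0.03125 over the 3 pairs. The spans run in the opposite order, 460, 1173 and 17258 bases, and how much of these differences goes with span was not tested. With the long-exon circle, both forms summed, in place of the 17258-base circle, SLC8A1 remained the lowest, with differences of -93.01 points to SMARCA5 and -54.7 points to CAMSAP1. With all circles of a gene summed in place of the dominant one, SLC8A1 minus SMARCA5 was -31.6 points and SMARCA5 minus CAMSAP1 turned to -23.8 points (exact sign-flip permutation test, adjusted p = 0.0469 and 0.0625). Non-junction reads of overlapping circles enter such a sum more than once. In Macheng black 1, a 16579-base SMARCA5 circle with 3 back-splice reads alone added 1185 of them. These sums therefore do not settle the order of the genes, which was compared for the dominant circles.

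**Figure D4:**
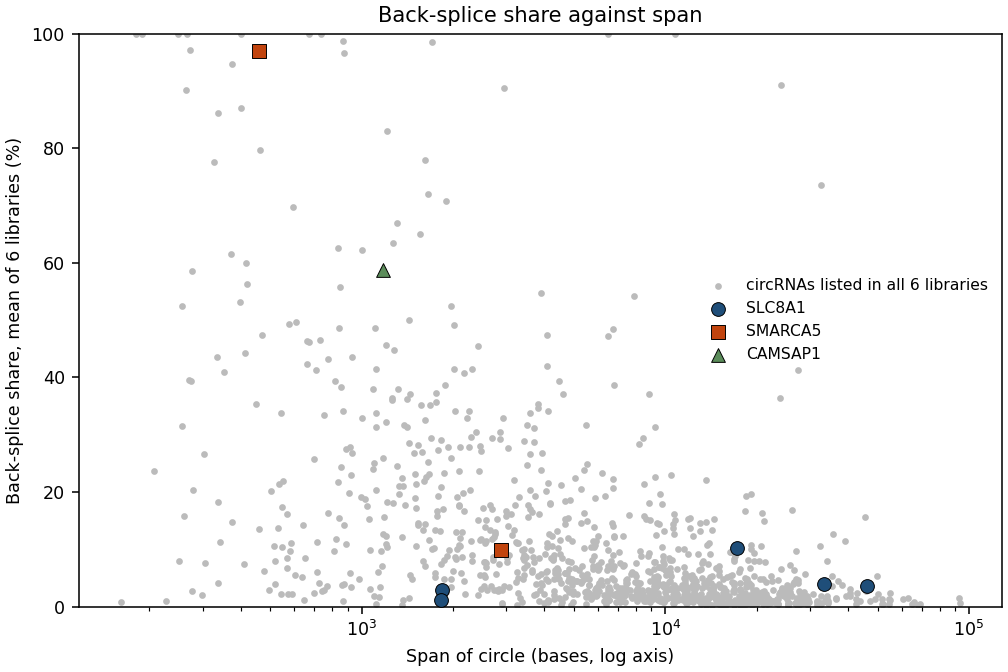
Back-splice share (y axis, percent of back-splice and non-junction reads, mean of 6 libraries) against span in bases (x axis, log scale) for the 1132 circRNAs listed in all 6 libraries (grey) and the members among them (coloured). Shares fell with span, the 460-base SMARCA5 and 1173-base CAMSAP1 circles lie high for their span, and the 2 SLC8A1 long-exon forms lie low.

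Since non-junction reads add up along a locus, those of each stretch between shared SLC8A1 ends were obtained by subtraction. The first stretch, from 22207612 to 22236506, had 22.2 ± 10.4 reads per kb (SD, n = 6), the second, to 22240861, had 22.3 ± 14.6, and the third, to 22253764, had 35.4 ± 16.7. The long exon had 786 ± 171 reads per kb (SD, n = 6). The long exon was thus covered far more densely than the downstream region, most of which is listed as intron. Boer 2 had the highest density in all of these stretches, with 41.7, 51.0 and 67.3 reads per kb in the 3 downstream stretches and 1065 in the long exon. In Boer 2 and Macheng black 3, the libraries with the fewest back-splice reads, the whole downstream region had 1.17 and 1.12 times as many non-junction reads as the long exon, against 0.582 to 0.764 in the other 4. Both also had the lowest back-splice shares of the 17258-base circle, at 3.54% and 2.41%.

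The CAMSAP1 circle had 47.3 ± 21.2 non-junction reads per kb, the 2876-base circle of SMARCA5 54.5 ± 10.2 and the 460-base circle 9.06 ± 6.21 (SD, n = 6 each). The pair of SMARCA5 circles thus differed in non-junction density within 1 gene, with the 460-base circle lower in every library. Neither the read length nor the counting of reads across an end is given in the sources used here, and the part of span length in this difference was not tested.

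**Figure D5:**
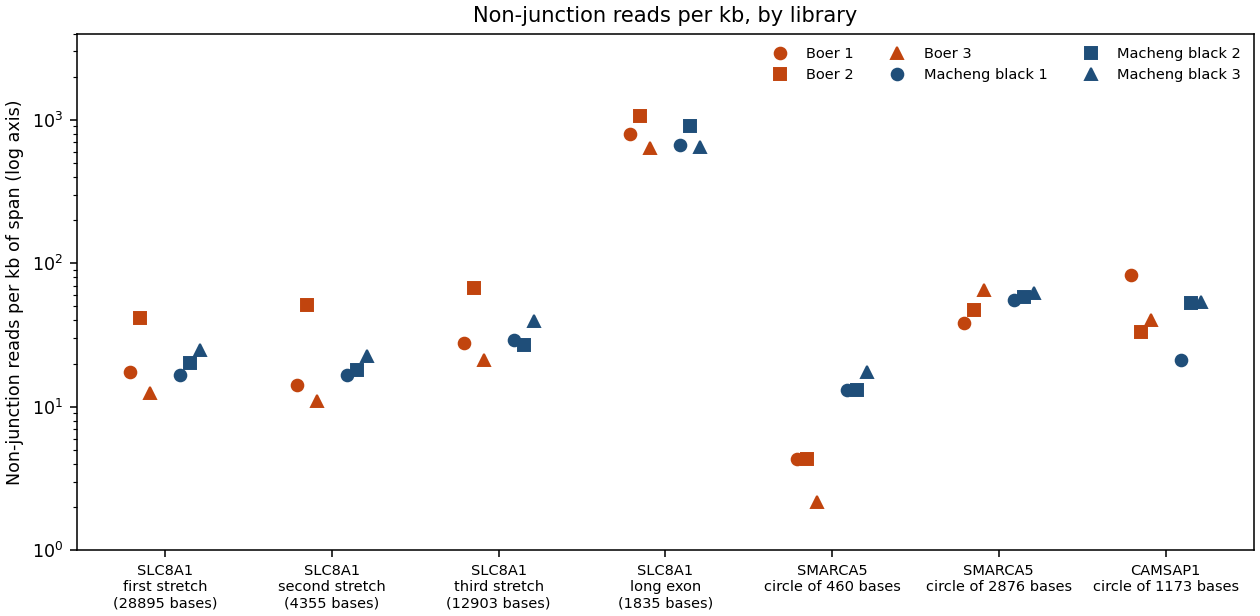
Non-junction reads per kb of span (y axis, log scale) for the 3 downstream stretches and the long exon of SLC8A1, the SMARCA5 circles and the CAMSAP1 circle (x axis). Points are libraries, in counts not scaled to library size. The long exon lies between 639.8 and 1065 reads per kb, and the 460-base SMARCA5 circle between 2.17 and 17.4.

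Other hosts of circRNAs known from many mammalian tissues were compared as a list of 30 genes. Of these, 6 were usable host genes, and 2 entered the test. ITCH, a ubiquitin ligase, had 89 reads over 11 circRNAs and a log2 fold change of -0.49 ± 0.51 (SE; edgeR adjusted p = 0.968). RBM33, which encodes an RNA-binding protein, had 84 reads over 3 circRNAs and -0.11 ± 0.53 (SE; edgeR adjusted p = 0.969). Neither passed with edgeR, at adjusted or unadjusted p under 0.05, nor did the breeds separate in either. ASXL1, ESYT2, CDYL and MTO1 had 7, 5, 4 and 2 reads. The other 24 genes of the list were not found among the usable hosts, which cover 14.7% of all circRNAs, and their circles may be listed under identifiers that could not be used. Of these, PVT1 and ZKSCAN1 are not in the name table and could not be looked up, and 755 of the 784 usable hosts have a symbol.

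The host genes whose summed reads followed the members most closely over the 6 libraries were found among 192 candidates by Pearson's r of log2 CPM. For SLC8A1 these were HTT, LOC102191110 and SH3RF1 (r = 0.96, 0.96 and 0.94). SMARCA5 was followed most closely by C23H6orf106, ITCH and C13H20orf194 (0.94, 0.92 and 0.91), and CAMSAP1 by TBC1D14, PAWR and ADCY9 (0.91, 0.87 and 0.82). Between the members, r was 0.83 for SLC8A1 with CAMSAP1, -0.37 for SLC8A1 with SMARCA5 and -0.71 for SMARCA5 with CAMSAP1. All these values rest on the same 6 libraries and their scaling, and those of the 9 other genes were chosen as the highest among the candidates.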

How the data were processed

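CircRNAs were counted in 6 ribosomal-RNA-depleted follicle libraries, 3 per breed, grouped by the sample titles. The submitters' processing notes name TopHat2 and Bowtie2 (version 2.0.6); no caller of circRNAs, genome build or annotation is given in the sources used here. The deposited counts of back-splice and non-junction reads are raw, per the file headers and the values. The deposited lengths are other values, in bases. The members and gene lists were chosen with earlier results of these data known.

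Symbols came from a RefSeq table of goat assembly ARS1.2, matched by Gene ID and used for names only. Of 829 identifiers, 27 spread over several chromosomes or with a listed part over 1000000 bases were set aside. The other 2046 circRNAs with 1 usable host rest on 784 genes, 755 of them with a symbol.

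CircRNAs or host genes with at least 2 reads in 3 libraries entered edgeR 4.0.16 (R 4.3.3) with TMM scaling, its quasi-likelihood test and Benjamini-Hochberg adjustment over all tested, at a threshold of 0.05, and, as an alternative, DESeq2 1.42.0. Unlisted circRNAs entered as 0, and SE came from the fold change and F. Shares per library were tested by exact permutation (scipy 1.17.1, Python 3.11.15). CPM are counts scaled to TMM library sizes, so that 1 read was worth 15.5 to 38.1 CPM. The test was checked on simulated counts with a common dispersion and with larger changes than those of the tested members. That check therefore does not cover changes of the size seen here. Named were all circles with at least 10 reads, the 3 most alike hosts per gene and up to 6 listed hosts. Merging of ends within 5 bases, the long exon as the SLC8A1 circle, comparison at like span (within 1.5-fold) and the checks of non-junction reads were added after the data were seen.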

Additional observations from a re-analysis of the deposited data

How the results depend on the processing

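For the single members, 136 values under alternative settings were computed, of which 134 kept the direction and none passed an adjusted p of 0.05. The log2 fold change of the 1832-base SLC8A1 circle ran from -0.050 (without Boer 1) to 0.36 with 1 library left out, and that of the 2876-base SMARCA5 circle from -0.00059 (without Macheng black 3) to 0.46. Over all circRNAs, the 13 edgeR calls became 8 with DESeq2, 35 with no filter and 2 with at least 5 reads in 3 libraries, and 0 to 15 with 1 library left out, with 0 without Macheng black 2 (edgeR, 171 at unadjusted p under 0.05) and 4 without Boer 1 or Macheng black 3. The 5 host gene calls became 1 with DESeq2, 3 with no filter and 0 with at least 5 reads in 3 libraries (21 at unadjusted p under 0.05 in edgeR), and 0 to 5 with 1 library left out (0 without Boer 3 or Macheng black 2, with 20 and 19 at unadjusted p under 0.05, and 1 each without Macheng black 1, Macheng black 3 and Boer 2). With the replicate block they became 0 (edgeR, 21 at unadjusted p under 0.05), and circRNA calls 11. Same-numbered libraries did not deviate together (r from -0.039 to 0.012 over circRNAs), so the numbers were not read as pairs.

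The breed difference in the share of the dominant SLC8A1 circle, 2.53 points, ran from -1.51 (without Boer 1) to 6.45 with 1 library left out, and turned to -7.18 with ends within 5 bases merged, when the long-exon circle becomes dominant. With 1 library left out, the difference between SLC8A1 and SMARCA5 in back-splice share ran from -88.8 to -85.3 points, that between SLC8A1 and CAMSAP1 from -51.4 to -44.9 and that between SMARCA5 and CAMSAP1 from 35.1 to 40.9, and 5 libraries cannot give a p below 0.0625. Summing all circles of a gene turned the last to -23.8 points (exact sign-flip permutation test, adjusted p = 0.0625), where the non-junction reads of the longer SMARCA5 circles enter. Reads of overlapping circles are counted more than once in these sums, so they do not settle the order of the genes. Depth limits the rarer circles: 1 read is worth up to 38.1 CPM.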
